A study of Homo sapiens with 8 samples.

Results

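Serum response factor (*SRF*), its coactivators *MRTFA* and *MRTFB*, and genes for the actins and the proteins that bind, cross-link or move actin filaments were followed through serum withdrawal in melanoma cells. The set held 39 genes, chosen by symbol out of the 58051 genes in each deposited count table, and 37 of them had enough reads to be tested. RNA from A375, an established human melanoma cell line, had been sequenced in 8 libraries. They came from 4 wild-type lines, WT1 to WT4, each grown from a single A375 cell, so that every line is 1 clone. Each line gave 1 library after 12 h in DMEM with 10% fetal bovine serum (FBS; "+ FBS" in the labels, serum here) and 1 library after the same time in DMEM without it ("- FBS", serum-free). The paper used these libraries to list secreted factors, which it then tested for preventing junction formation between serum-starved melanoma cells. Apart from serum, both groups shared the medium, the lines and the ribosomal RNA depletion, and p-values measure only the spread between these 4 clones.

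SRF is a transcription factor that sits on CArG boxes in the promoters of many cytoskeletal genes. Its MRTF coactivators bind monomeric actin and are held in the cytoplasm by it. Serum promotes filament assembly, which uses up the monomer and lets MRTF enter the nucleus and join SRF. Ternary complex factors of the ELK family, which respond to ERK, form the other class of SRF partners and serve mainly immediate early genes. Actin is thus both the regulator of the pathway and one of its products.

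To show the binding sequence itself, RefSeq windows of GRCh38.p14, from 250 bases before to 50 bases after an annotated transcript start, were searched for the CArG box, a run of A and T bases between CC and GG that reads as a CArG box on both strands. Windows were held for 36 of the 39 genes, without *ACTB*, *TAGLN* and *MYL9*. A box lay in a window of 9 of these 36 genes (25%), and of 438 of the 27305 genes with a window (1.6%). By window, 11 of 78 held one against 454 of 35116 overall (14.1% against 1.29%). Because the genes were gathered as SRF and actin genes, this count describes them and is no finding. The boxes are shown in capitals in the 5′ to 3′ direction of the gene, first for *SRF*, whose window held 2 boxes, 30 and 10 bases before the start.

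*SRF*, chr6:43171214-43171268, plus strand: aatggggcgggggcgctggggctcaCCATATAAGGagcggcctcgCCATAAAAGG

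The next sequences belong to genes that were lower without serum in the test given further on. In *ACTG1* the box began 94 bases before the start, in *ACTN1* 171 bases and in *TPM4* 173 bases before it, and *FHL2* held boxes before separate starts, at 101 and 59 bases.

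*ACTG1*, chr17:81512859-81512918, minus strand: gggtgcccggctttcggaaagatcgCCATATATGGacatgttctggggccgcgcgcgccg

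*ACTN1*, chr14:68977703-68977762, minus strand: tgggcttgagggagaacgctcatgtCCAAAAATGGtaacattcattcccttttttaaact

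*TPM4*, chr19:16067340-16067399, plus strand: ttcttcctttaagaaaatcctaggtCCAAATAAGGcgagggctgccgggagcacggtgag

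*FHL2*, chr2:105438580-105438639, minus strand: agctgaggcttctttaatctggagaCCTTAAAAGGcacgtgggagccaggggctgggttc

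*FHL2*, chr2:105399076-105399135, minus strand: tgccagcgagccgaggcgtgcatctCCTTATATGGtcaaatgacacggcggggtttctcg

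*TGFB1I1*, which was higher without serum, carried a box 51 bases before its start.

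*TGFB1I1*, chr16:31473129-31473188, plus strand: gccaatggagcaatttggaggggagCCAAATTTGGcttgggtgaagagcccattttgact

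Boxes in *CNN2*, *FLNA* and *FHL1*, which did not pass the test, began 89, 94 and 126 bases before the start.

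*CNN2*, chr19:1026494-1026553, plus strand: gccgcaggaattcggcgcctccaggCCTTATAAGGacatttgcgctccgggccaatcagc

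*FLNA*, chrX:154374694-154374753, minus strand: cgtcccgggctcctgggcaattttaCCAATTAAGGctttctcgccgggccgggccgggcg

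*FHL1*, chrX:136196896-136196955, plus strand: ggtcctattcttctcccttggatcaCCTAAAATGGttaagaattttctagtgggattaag

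Boxes were therefore held by genes of every outcome: 4 of the 9 lower genes with a window, 1 of the 3 higher genes and 4 of the 22 that passed in neither direction. A match is a stretch of letters and not a bound site, and no match says only that the box is absent from this window.

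**Figure D1:**
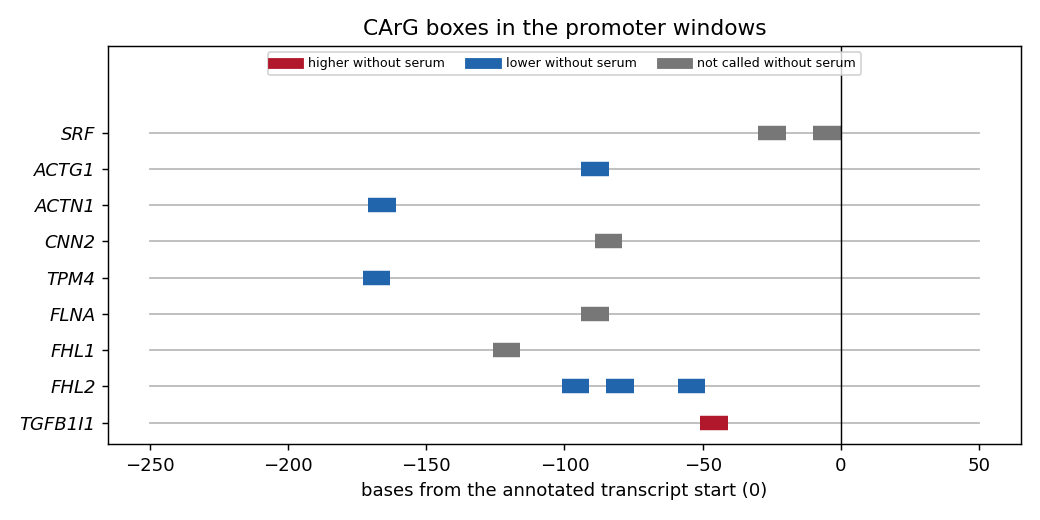
Position of CArG boxes in the promoter windows of 9 genes, in bases from the annotated transcript start at 0, with each window drawn from 250 bases before to 50 bases after it; blue, red and grey mark genes lower, higher and not called without serum. The boxes of *SRF* lie 30 and 10 bases before the start and the others between 173 and 51 bases before it; *FHL2* has 3 marks because 1 box is drawn at its distance from each of 2 nearby starts (101 and 85 bases).

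Each serum library held between 29759279 and 67101005 reads on genes, and each serum-free library between 37847737 and 73341551. Reads aligned to several places made up 22.7% and 16.8% of the reads in the serum libraries of WT1 and WT2, against 5.73% to 10.1% in the other 6. The WT4 count tables carry another name than WT4, so that line's identity rests on the labels. Among melanoma markers *AXL* (590 CPM, reads per 1000000 reads on genes after TMM scaling), *NGFR* (93.2 CPM) and *MITF* (40.2 CPM) were well detected with serum, while *PMEL*, *MLANA*, *DCT* and *TYR*, of pigment cells, averaged at most 1.23 CPM. *SOX10*, whose exons overlap *POLR2F* on the opposite strand over 5.39% of their length, was listed at 0 reads in all 8 libraries. Of epithelial and blood markers, *HBB* was at 0 and *EPCAM*, *CDH1*, *PTPRC* and *CD68* averaged under 0.1 CPM, while *KRT14* was at 17.2 CPM with serum.

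Without serum, RNA of the non-muscle actins and of several of their binding partners fell, while a few genes rose. By the quasi-likelihood test of edgeR, with p-values adjusted by the Benjamini-Hochberg procedure over all 17671 tested genes, at a threshold of 0.05, 10 of the 37 tested genes (27.0%) were lower and 3 (8.11%) were higher, against 14.0% and 11.1% of all tested genes. The lower genes were *ACTB*, *ACTG1*, *ACTN1*, *MYL12A*, *MYL12B*, *TPM3*, *TPM4*, *ZYX*, *FHL2* and *LIMA1*. The higher genes were *ACTA2*, *TGFB1I1* and *TLN1*. The median log2 fold change (serum-free over serum) of the 37 genes was -0.06, and that of all tested genes 0.03. These RNAs are from bulk cultures, in which fewer cells of a kind and less RNA per cell cannot be told apart.

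The counts depended on whether the lines were matched. With the line as a replicate block, 14 genes (37.8%) were lower and 6 (16.2%) higher, against 22.4% and 23.2% of all genes. The block added *TAGLN2*, *CNN2*, *CNN3* and *TPM1* to the lower genes and *SRF*, *TAGLN* and *FHL3* to the higher ones. In every line, 17 of the 37 (45.9%) were lower without serum and 5 (13.5%) higher, where 26.6% and 28.8% of all genes were. Levels of the groups did not overlap for 11 lower and 3 higher genes (29.7% and 8.11%), against 15.0% and 12.6% of all genes. Fold changes also moved with base composition. Across 17425 genes, which are not independent, the log2 fold change correlated with GC content at 0.36 (Spearman's rank correlation), and the tested set had a median GC content of 55.2% against 47.9% for all tested genes. After a GC correction fitted together with the block, 22 of the 37 genes were lower and 3 higher, with 24.7% and 21.8% of all genes called, and the set's median became -0.23. Compared with the block alone, that correction took away the higher calls of *TLN1*, *SRF* and *FHL3* and brought in *MRTFA*, *ACTN4*, *MYH9*, *TPM2*, *FLNA*, *PDLIM7*, *CFL1* and *VASP* as lower.

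**Figure D2:**
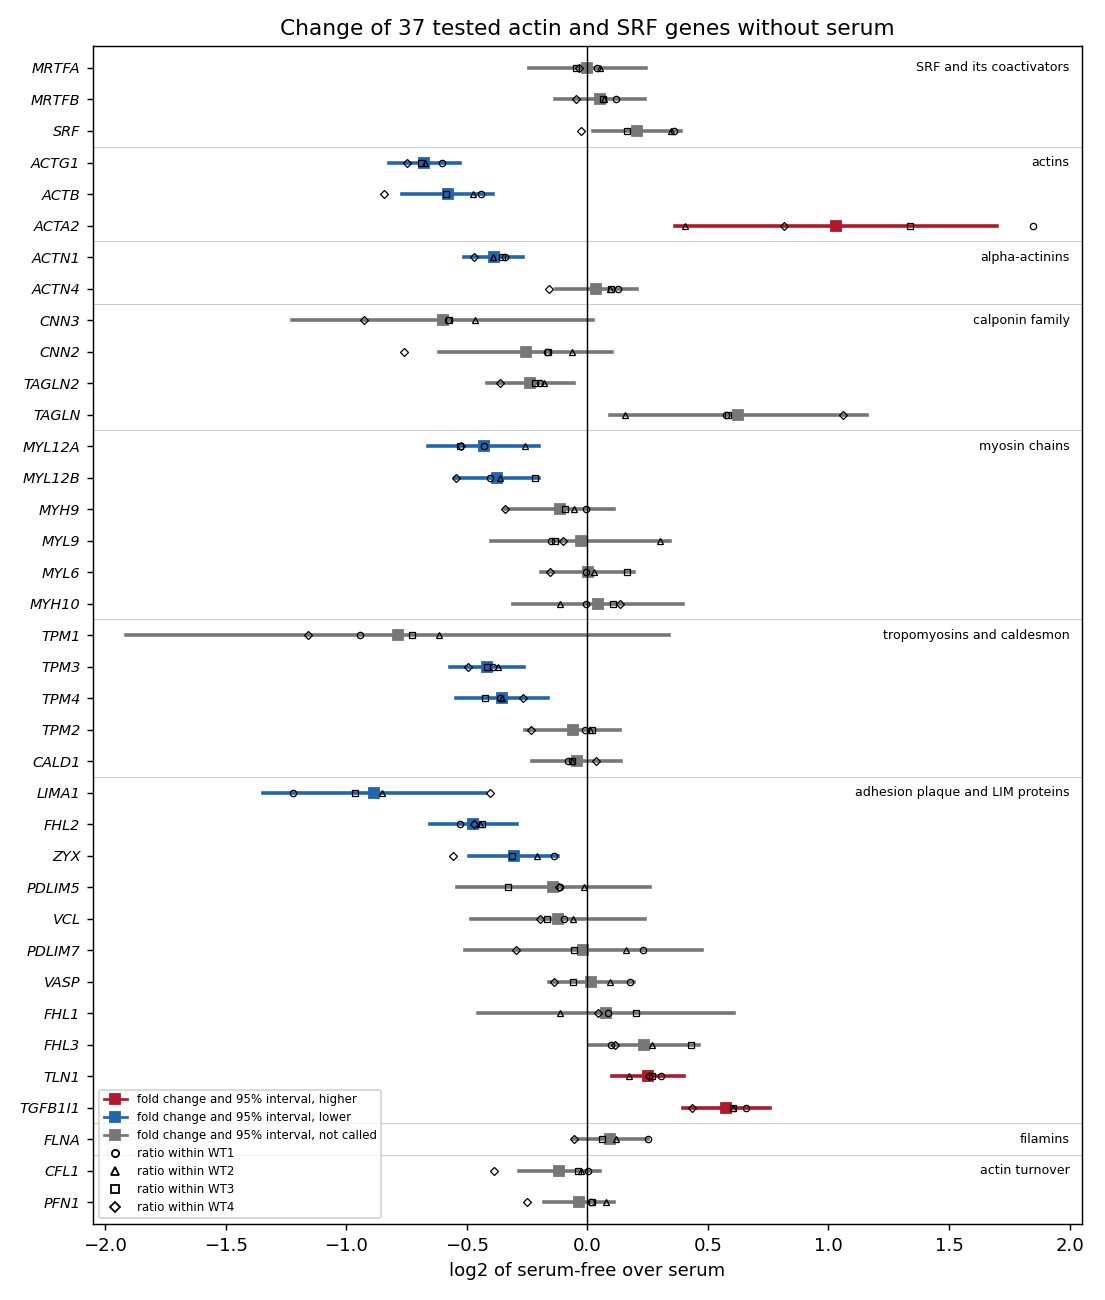
Log2 fold change (serum-free over serum) of the 37 tested genes by role, as squares with 95% intervals from edgeR coloured by call, with open symbols for the log2 ratio within each of the 4 lines. The 10 lower genes sit between -0.88 (*LIMA1*) and -0.31 (*ZYX*), the 3 higher ones between 0.25 (*TLN1*) and 1.03 (*ACTA2*), and *TPM1* has the widest interval, from -1.91 to 0.34.

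The transcription factor and its coactivators showed small differences. *SRF* (ENSG00000112658, chromosome 6 of GRCh38, 43171269 to 43181506) was at 58.5, 60.0, 69.1 and 73.4 CPM with serum in WT1, WT2, WT3 and WT4, and at 75.0, 76.2, 77.4 and 72.2 CPM without. It was higher in WT1, WT2 and WT3 and about level in WT4, and the groups overlapped. The means were 65.2 ± 7.20 and 75.2 ± 2.24 CPM (SD, n = 4), a log2 difference of 0.21 ± 0.08 (SE) that did not pass the test (adjusted p from edgeR = 0.0963). Matching the lines gave 0.21 ± 0.07 (adjusted p from edgeR = 0.0204 with the block), but the blocked call held only when WT4 was the line left out and was lost without WT1, WT2 or WT3 (adjusted p from edgeR = 0.148, 0.141 and 0.0895). Without WT4 *SRF* passed in the unblocked fit as well, and after the GC correction the value was -0.01 (adjusted p from edgeR = 0.895). *MRTFA*, the coactivator first described in megakaryoblastic leukemia, was at 25.5, 25.3, 29.6 and 33.0 CPM with serum and at 26.2, 26.2, 28.6 and 32.2 CPM without, in the same order of lines. Its levels followed the line and not the medium, with a log2 difference of 0.00 ± 0.11 (adjusted p from edgeR = 0.999), or -0.23 after the GC correction (adjusted p from edgeR = 0.00443). *MRTFB*, its close relative, was at 40.6, 42.7, 48.1 and 42.5 CPM with serum and at 44.0, 44.7, 50.4 and 41.2 CPM without. The log2 difference of 0.05 had a 95% interval from -0.13 to 0.24, so changes beyond that range were not seen with this spread between lines.

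RNA of the cytoplasmic actins, which build the filaments of non-muscle cells, fell in all 4 lines. *ACTB* (beta-actin, ENSG00000075624, chromosome 7, 5527148 to 5530601) had 5100, 5350, 5010 and 5330 CPM with serum in WT1 to WT4 and 3750, 3850, 3330 and 2970 CPM without. Every serum-free library lay below every serum library, and WT4 fell the most. The mean went from 5198 ± 171 to 3477 ± 405 CPM (SD, n = 4), which is -0.58 ± 0.08 in log2 units (adjusted p from edgeR = 0.0021). *ACTG1* (gamma-actin, ENSG00000184009, chromosome 17, 81509971 to 81512799), the other cytoplasmic actin, had 3380, 3280, 3100 and 3200 CPM with serum and 2230, 2060, 1920 and 1910 CPM without. Its groups were also apart, and the 4 within-line log2 ratios lay close together, from -0.75 to -0.60. The log2 fold change was -0.68 ± 0.07 (adjusted p from edgeR = 8.28e-04). Together these genes took 0.769% to 0.845% of the reads on genes with serum and 0.515% to 0.624% without. Their ratio of reads, *ACTB* to *ACTG1*, was 1.51 to 1.66 with serum and 1.56 to 1.87 without, ranges that overlapped. All 39 genes took 1.87% to 2.01% of reads with serum and 1.59% to 1.82% without.

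*ACTA2*, the actin of smooth muscle and myofibroblasts, went the other way at a level near the lower end of the set. It was at 0.53, 1.55, 0.981 and 1.02 CPM with serum and at 2.02, 2.07, 2.54 and 1.83 CPM without. All serum-free values were above all serum values, with 638 reads in the 8 libraries together. The log2 fold change was 1.03 ± 0.30 (adjusted p from edgeR = 0.031), and 1.07 ± 0.25 with the block (adjusted p from edgeR = 0.00279). Without the block the call was lost in 8 of 12 fits without 1 library or 1 line, in which adjusted p from edgeR reached 0.166. Exons of *ACTA2* overlap other genes over 36.2% of their length, mostly on the opposite strand, and the strand setting of the counts is not given in the sources used here, so its value is uncertain. Of the 7 tested markers of fibroblasts and smooth muscle, 3 were higher (*LMOD1*, *PDGFRA* and *PDGFRB*; 42.9%, against 11.1% of all genes) and 0 lower, while *MYH11*, *COL1A1*, *DCN* and *LUM* did not pass. With the block 5 were higher (71.4%, against 23.2% of all genes), *MYH11* and *DCN* in addition. The summed level of the 12 markers was 16.8 to 19.8 CPM with serum and 30.7 to 33.3 CPM without, and *PDGFRB* alone averaged 6.66 and 16.7 CPM. *COL1A1* averaged 1.43 and 1.61 CPM, *DCN* 1.04 and 1.94 CPM and *LUM* 4.56 and 3.62 CPM, and the other 5 markers, *COL1A2*, *COL3A1*, *DES*, *ACTG2* and *MYOCD*, averaged under 0.1 CPM in both groups. The part of such cells in the rise of *ACTA2* was not tested.

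**Figure D3:**
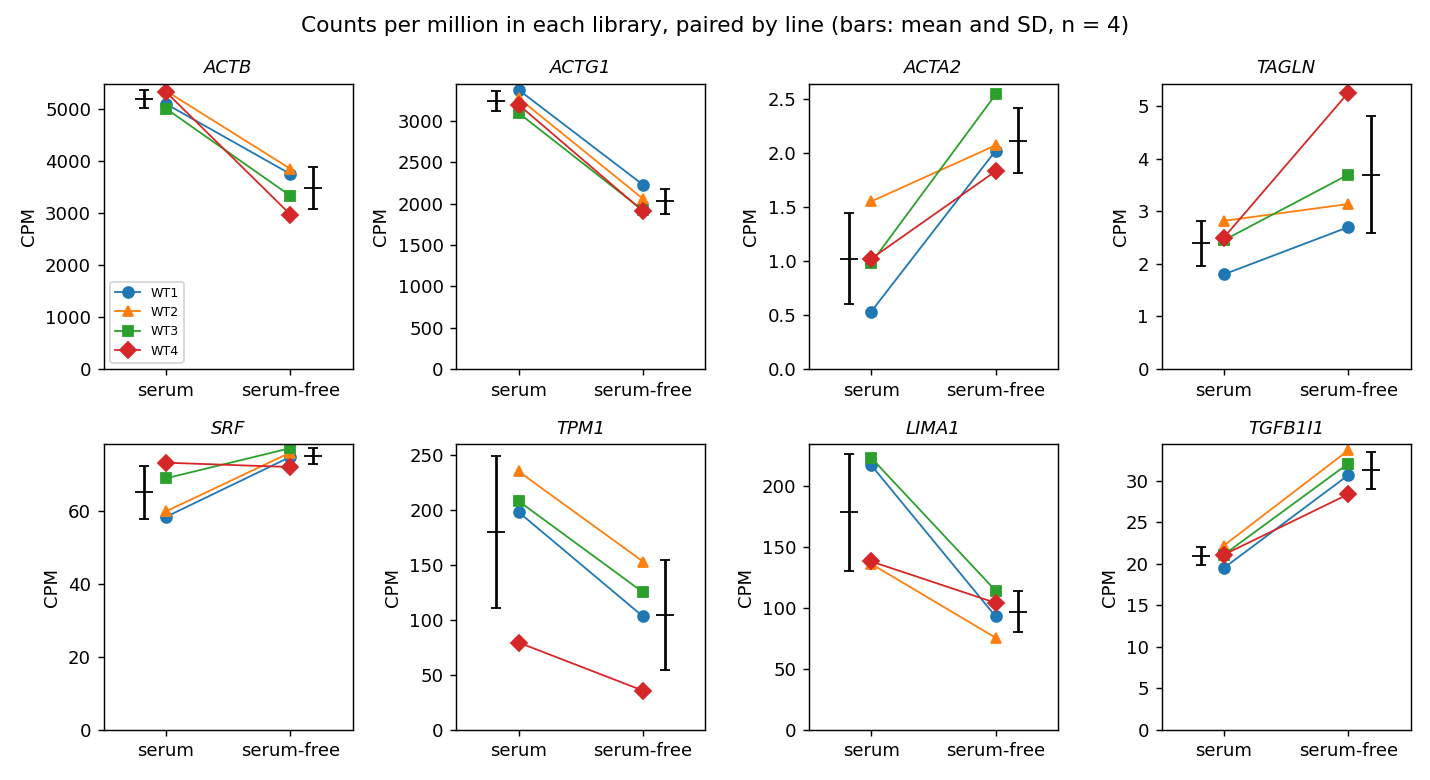
CPM of 8 genes in each library (y axes from 0), with a line joining the serum and serum-free libraries of each of the 4 lines and bars for mean and SD (n = 4). Without serum *ACTB*, *ACTG1*, *LIMA1* and *TPM1* are lower in all 4 lines, *ACTA2*, *TAGLN* and *TGFB1I1* are higher in all 4, *SRF* is higher in WT1, WT2 and WT3, and *TPM1* is far lower in WT4 (79.3 CPM with serum) than in the other lines.

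Alpha-actinins cross-link filaments and tie them to adhesions. *ACTN1* (ENSG00000072110) was at 520, 551, 538 and 543 CPM with serum and at 410, 420, 421 and 392 CPM without. The lines were nearly alike in both media and the groups were well apart, with a log2 fold change of -0.39 ± 0.05 (adjusted p from edgeR = 0.00195). *ACTN4*, its paralog, averaged 936 ± 81.6 and 960 ± 51.3 CPM (SD, n = 4), a log2 difference of 0.04 with a 95% interval from -0.13 to 0.20. *ACTN4* was thus not seen to follow *ACTN1*, although after the GC correction with the block it stood at -0.15 and passed as lower.

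Calponins and transgelins bind along filaments and are classical SRF targets of muscle. *TAGLN* (SM22, ENSG00000149591, chromosome 11, 117199294 to 117207465) was at 1.80, 2.82, 2.45 and 2.50 CPM with serum and at 2.70, 3.14, 3.70 and 5.26 CPM without. It was higher in every line, most in WT4, but the groups overlapped. The log2 difference of 0.63 ± 0.24 did not pass (adjusted p from edgeR = 0.0817), while the block gave 0.59 ± 0.17 (adjusted p from edgeR = 0.0118). Other genes share 47.8% of its exon length, so this value too is uncertain, and 3 of the 7 tested fibroblast and smooth muscle markers given with *ACTA2* were higher in the same libraries (their part was not tested). The blocked call was lost without WT3 or WT4 (adjusted p from edgeR = 0.0585 and 0.0517). *TAGLN2*, the non-muscle transgelin, was lower in all 4 lines, at 600 ± 34.2 with and 510 ± 50.8 CPM without serum (SD, n = 4). Its log2 difference of -0.24 missed the threshold (adjusted p from edgeR = 0.0591) and passed with the block (adjusted p from edgeR = 0.00161). *CNN3*, the acidic calponin of non-muscle cells, averaged 349 ± 78.2 and 231 ± 70.7 CPM. WT4 was far below the other lines in both media, which widened the unblocked error (log2 difference -0.60 ± 0.27, adjusted p from edgeR = 0.144). Within lines the difference was -0.63 ± 0.07 (adjusted p from edgeR = 4.76e-06 with the block). *CNN2* had a log2 difference of -0.26, with -0.76 in WT4 and -0.17 to -0.07 in the other lines, and passed with the block (adjusted p from edgeR = 0.0306), where the call was lost without WT3 (0.0522). *CNN1*, the calponin of smooth muscle, had 75 reads in all 8 libraries and was not tested.

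Of the non-muscle myosin II genes, those of the regulatory light chains fell and those of the heavy chains passed neither with nor without the block. *MYL12A* (ENSG00000101608) was at 67.0, 65.1, 68.3 and 56.7 CPM with serum and at 49.7, 54.4, 47.4 and 39.4 CPM without. The groups did not overlap, and the log2 fold change was -0.43 ± 0.10 (adjusted p from edgeR = 0.0148). *MYL12B* (ENSG00000118680), its neighbour on chromosome 18 and close paralog, was at 154, 147, 149 and 145 CPM with serum and at 117, 115, 128 and 99.6 CPM without. That gene fell by 0.38 ± 0.08 in log2 units (adjusted p from edgeR = 0.00822), so the pair changed by similar amounts. Reads aligned to several places, as those matching both copies would be, were left out of the gene counts. Their share differed between libraries, as given above, which leaves each value uncertain. The call of *MYL12A* was lost without WT1 (adjusted p from edgeR = 0.0897 at most) or WT3, and that of *MYL12B* without WT1 or WT2 (at most 0.0628); with the block both held without any 1 line. *MYL6*, the essential light chain, had a log2 difference of 0.00 (95% interval -0.19 to 0.19), and *MYL9*, the regulatory light chain of smooth muscle, one of -0.03 (-0.40 to 0.34) at 3 CPM. The heavy chains *MYH9* and *MYH10* differed by -0.12 (-0.34 to 0.11) and 0.04 (-0.31 to 0.40) on the log2 scale. *MYH9* was lower in every line, and after the GC correction with the block it passed as lower (-0.31, adjusted p from edgeR = 3.47e-05). *MYH10* did not pass there (adjusted p from edgeR = 0.978).

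Tropomyosins run along the filament and set which partners can bind it. *TPM3* (ENSG00000143549) was at 1090, 1040, 1070 and 985 CPM with serum and at 829, 804, 800 and 700 CPM without. Each line fell, and the fitted fold change was -0.42 ± 0.07 (log2) (adjusted p from edgeR = 0.0033), and none of the 12 fits with a library or line removed lost this call. *TPM4* went from 327 ± 32.6 to 256 ± 17.6 CPM (SD, n = 4), which is -0.35 ± 0.09 in log2 units (adjusted p from edgeR = 0.0151) that was lost without WT1, WT2 or WT3 (adjusted p from edgeR up to 0.0869). The log2 difference of *TPM1* was exceeded in size only by those of *ACTA2* and *LIMA1*, but its lines were unlike. It was at 198, 235, 208 and 79.3 CPM with serum and at 103, 153, 125 and 35.5 CPM without, and it was named for these values after they were seen. Every line was lower without serum, while the spread between lines made the unblocked difference of -0.79 ± 0.48 indistinct (adjusted p from edgeR = 0.275). Matched by line it was -0.86 ± 0.08 (adjusted p from edgeR = 9.64e-07), and without WT4 it passed without the block as well. Other genes share 22.7% of its exon length. *TPM2* (-0.06, interval -0.26 to 0.14) and *CALD1*, or caldesmon (-0.04, interval -0.23 to 0.14), passed in no unblocked fit.

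Genes for proteins of adhesion plaques and LIM domains moved in both directions, with 3 of 11 lower and 2 higher, where 14.0% and 11.1% of all tested genes were. *LIMA1* (EPLIN, ENSG00000050405, chromosome 12, 50175788 to 50283520), which stabilises filaments and links actin to cadherin junctions, was at 217, 136, 223 and 138 CPM with serum and at 92.9, 75.4, 114 and 104 CPM without. It was lower in every line, least in WT4, and the groups did not overlap. The log2 fold change of -0.88 ± 0.20 was the largest fall among the called genes (adjusted p from edgeR = 0.0151), and it was lost without WT1 (adjusted p from edgeR = 0.105) or with no filter on low counts. *FHL2* (ENSG00000115641), a LIM cofactor that binds SRF and other factors, was at 51.7, 44.3, 43.7 and 43.5 CPM with serum and at 35.9, 32.5, 32.3 and 31.4 CPM without. All lines fell by nearly the same amount, -0.47 ± 0.08 in log2 units (adjusted p from edgeR = 0.00374). *ZYX*, or zyxin, a sensor of tension at adhesions, went from 146 ± 13.0 to 118 ± 8.61 CPM, or -0.31 ± 0.08 in log2 units (adjusted p from edgeR = 0.0233). Its call was lost in 8 of 12 such reduced fits (adjusted p from edgeR up to 0.11) and with upper-quartile scaling, and was kept in all 4 fits with the block and 1 line fewer.

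*TGFB1I1* (Hic-5, ENSG00000140682, chromosome 16, 31472152 to 31477960), a paxillin relative of focal adhesions, also rose, as did the 3 fibroblast and smooth muscle markers given with *ACTA2*, whose part was not tested. It was at 19.5, 22.2, 21.1 and 21.1 CPM with serum and at 30.7, 33.7, 32.1 and 28.4 CPM without. Lines were close together and the groups well apart, with a log2 fold change of 0.58 ± 0.08 (adjusted p from edgeR = 0.00193), or 0.38 after the GC correction with the block, where it stayed called. *TLN1*, or talin, which joins integrins to actin, went from 543 ± 29.0 to 646 ± 40.2 CPM (SD, n = 4). Its log2 fold change was 0.25 ± 0.07 (adjusted p from edgeR = 0.0231). This call was lost in 9 of 12 reduced fits (adjusted p from edgeR up to 0.134) and after the GC correction (0.08, adjusted p from edgeR = 0.132). *FHL3* was higher in all 4 lines by 0.23 and did not pass unblocked, but did with the block (adjusted p from edgeR = 0.0348). That blocked call held only when WT4 was the line left out, and the GC correction brought the value to 0.013 (adjusted p from edgeR = 0.909). *VCL* (vinculin), *PDLIM5*, *PDLIM7*, *VASP* and *FHL1* had log2 differences from -0.14 to 0.08 and passed neither with nor without the block.

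Of the filamins and the turnover factors, *FLNA*, *CFL1* and *PFN1* passed neither with nor without the block. *FLNA*, a cross-linker and at 2832 ± 144 CPM with serum the third most abundant member by reads, was at 3027 ± 234 CPM without (log2 difference 0.10, 95% interval -0.06 to 0.25). *FLNC*, the filamin of muscle, had 20 reads in all and was not tested; with serum it was at 0 in WT1, WT2 and WT4 and at 0.0234 CPM in WT3, and without serum at 0.0514 to 0.118 CPM, where 3 reads are worth 0.0409 to 0.0793 CPM. *CFL1*, or cofilin, which severs filaments, and *PFN1*, or profilin, which feeds monomer to growing ends, had log2 differences of -0.12 (-0.28 to 0.05) and -0.03 (-0.18 to 0.11). After the GC correction with the block *FLNA* (-0.15, adjusted p from edgeR = 0.00656) and *CFL1* (-0.28, adjusted p from edgeR = 1.52e-04) were lower. Exons of *CFL1*, *MYL6*, *ACTN4* and *VCL* are shared with other genes over 19.0%, 18.3%, 14.2% and 11.1% of their length. Pseudogenes named after 15 of the 39 genes held at most 1.3% of the reads of gene and copies (*PFN1*), and adding those reads changed no call. Reads aligned to several places were in neither count, so this check does not cover them.

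Levels per length spanned a wide range. In RPKM (reads scaled to merged exon length and library size), *ACTB* was highest, at 1180 ± 38.9 with serum and 789 ± 92.0 without (SD, n = 4), followed by *ACTG1* at 800 ± 29.3 and 501 ± 36.8 and *PFN1* at 511 ± 23.8 and 499 ± 30.1. Without serum the levels of *ACTG1* and *PFN1* were closer than their spread, whereas with serum they were apart. *TAGLN2* (265 ± 15.1) and *FLNA* (261 ± 13.3) differed by less than their SD with serum. The lowest tested genes with serum were *MYL9* (1.20 RPKM) and *FHL1* (1.19 RPKM), which differed by less than their SD, then *TAGLN* at 0.37 and *ACTA2* at 0.18 RPKM. *SRF* stood at 15.4 RPKM, above *MRTFA* (3.87) and *MRTFB* (2.62). The order depends on the length used: with the longest transcript *CFL1* was at 562 RPKM with serum instead of 180, and the lengths come from an annotation on GRCh37 whereas reads were counted on GRCh38.

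**Figure D4:**
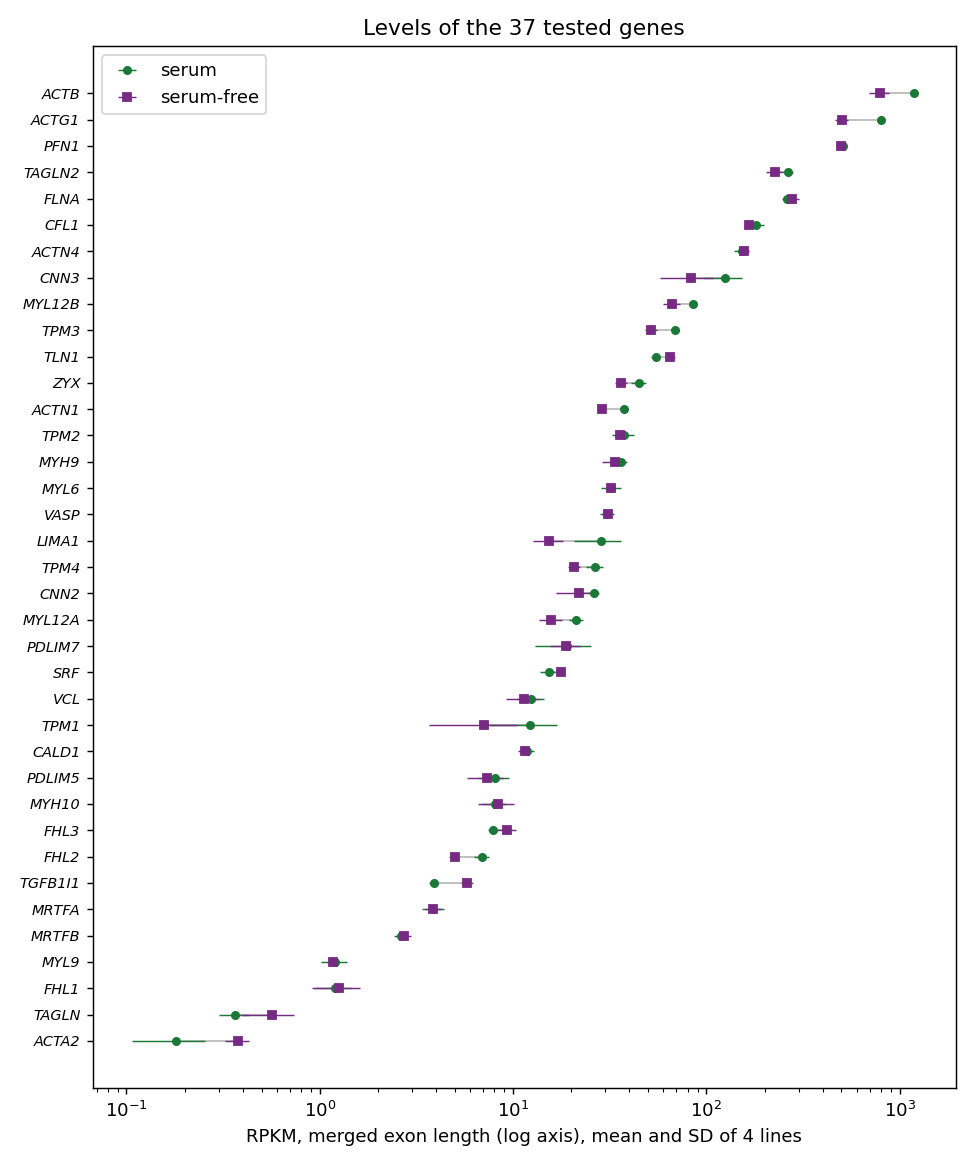
RPKM of the 37 tested genes on a log axis, mean and SD of 4 lines, circles for serum and squares for serum-free, ordered by level with serum. *ACTB* and *ACTG1* are at the top (1180 and 800 RPKM with serum) and lie further left without serum, whereas *TAGLN* and *ACTA2* at the bottom (0.37 and 0.18 RPKM) lie further right.

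The lines also differed from each other irrespective of serum. In an additive fit of line and medium, 11 of the 37 genes (29.7%) differed between lines, against 22.9% of all tested genes. They were *TPM1*, *CNN3*, *VCL*, *PDLIM5*, *MYH10*, *PDLIM7*, *FHL1*, *MRTFA*, *MYH9*, *TPM4* and *MYL12A*. The widest gap was in *TPM1*, with 1.84 on the log2 scale between WT2 and WT4 (adjusted p from edgeR = 1.6e-07 in the test over lines), followed by *CNN3* with 0.95 between WT3 and WT4 (adjusted p from edgeR = 1.56e-05). WT4 was the lowest line in *TPM1*, *CNN3*, *VCL*, *PDLIM5*, *MYH9*, *TPM4* and *MYL12A*, and the highest in *PDLIM7* and *MRTFA*. *PDLIM7* was at 124 CPM with serum in WT4 and at 67.1 to 73.8 CPM in the others. In *FHL1* and *MYH10* the lowest line was WT2. When WT4 was left out, 16 genes (43.2%) differed between the remaining lines, against 18.6% of all genes, and when WT2 was left out, 6 (16.2%) did, against 17.6%. Response to serum also varied: the median log2 ratio of the 37 genes was -0.01, -0.05, -0.06 and -0.23 in WT1, WT2, WT3 and WT4, where the medians of all tested genes were 0.02, 0.03, 0.02 and 0.04. That difference between WT4 and the other lines was not tested, since each line has 1 library per medium.

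**Figure D5:**
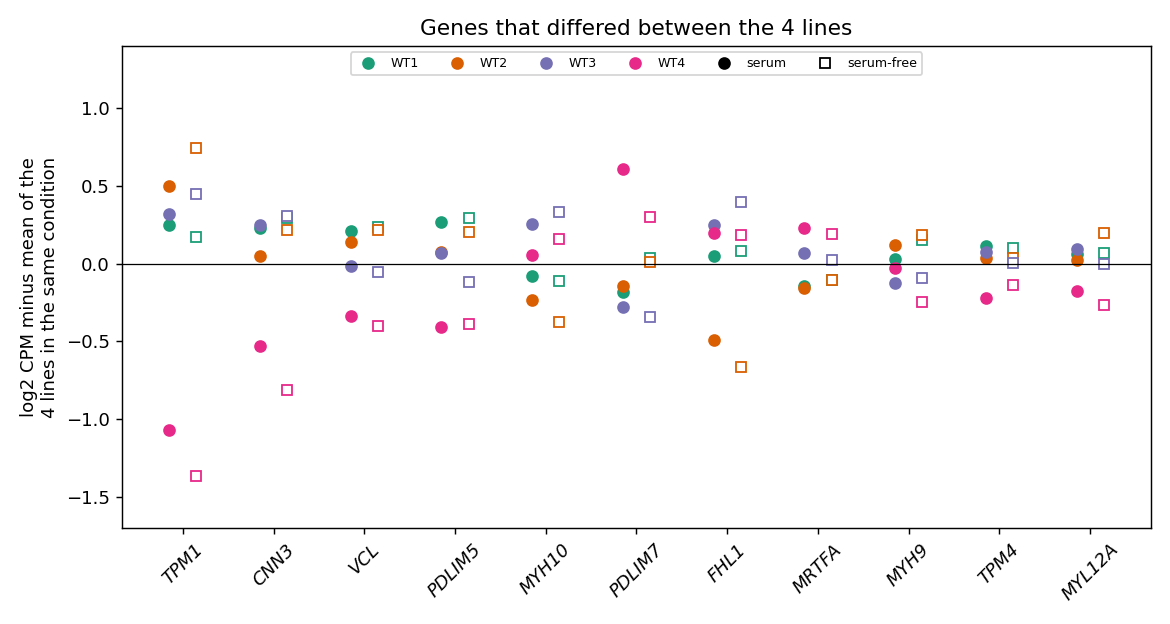
Log2 CPM minus the mean of the 4 lines in the same medium for the 11 genes that differed between lines, coloured by line, with filled circles for serum and open squares for serum-free. WT4 is about 1 unit or more below the mean in *TPM1* in both media, and the 2 points of each line lie near each other for most genes.

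Around these genes, other parts of the pathway were read from lists of related genes. Of 19 tested further SRF and MRTF targets, 3 were lower and 1 higher, with a median log2 fold change of -0.18. The higher gene was *LMOD1*, which the smooth muscle list also holds, at the low level given with *ACTA2*. The lower share, 15.8%, was close to the 14.0% of all tested genes, and the higher share was 5.26% against 11.1%. With the block 10 were lower (52.6%, against 22.4% of all genes) and 3 higher (15.8%, against 23.2%). *CORO1C*, a coronin, fell by 0.55 ± 0.10 in log2 units (adjusted p from edgeR = 0.0043), and *WDR1*, a cofactor of cofilin, by 0.27 ± 0.05 (adjusted p from edgeR = 0.0057). Among 30 genes of actin assembly and turnover, 11 were lower (36.7%) and 2 higher (6.67%), with a median of -0.21, and with the block 17 (56.7%) and 4 (13.3%). *ARPC5L*, a subunit of the Arp2/3 branching complex, fell by 0.56 ± 0.06 (adjusted p from edgeR = 9.96e-04), and *CAP1*, which recycles actin monomer, by 0.37 ± 0.05 (adjusted p from edgeR = 0.00201).

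The immediate early genes, served by SRF with ternary complex factors, were mixed. Of 13 tested, 2 were lower (15.4%, close to the 14.0% of all genes) and 0 higher, with a median of 0.06, and with the block 4 were lower and 4 higher (30.8% each, against 22.4% and 23.2%). The 4 higher with the block, named after their values were seen, were *EGR1* (1.16, adjusted p from edgeR = 7.29e-07), *FOSB* (0.62), *IER3* (0.61) and *JUNB* (0.29). The 4 lower with the block were *ATF3*, *MCL1*, *FOSL1* (-0.78, adjusted p from edgeR = 1.57e-04) and *NR4A1* (-0.41, adjusted p from edgeR = 1.59e-04). *ATF3*, a stress-responsive factor, fell by 1.06 ± 0.28 (adjusted p from edgeR = 0.0206) and *MCL1*, a survival protein of the BCL2 family, by 0.21 ± 0.05 (adjusted p from edgeR = 0.0187). The SRF cofactors *ELK1*, *ELK3* and *ELK4* and the inhibitor *SCAI* passed in neither fit, with log2 differences from -0.21 to 0.02, and *MYOCD*, the muscle coactivator, had too few reads to test. Among cell type lists, 1 of the 9 tested melanoma markers was lower (*MITF*, the melanocyte master factor, -0.28 ± 0.09, adjusted p from edgeR = 0.0496) and 0 higher. These shares, 11.1% and 0%, stood against 14.0% and 11.1% of all genes. With the block 3 melanoma markers were lower (*MITF*, *AXL* and *DCT*; 33.3%, against 22.4% of all genes) and 2 higher (*PAX3* and *S100B*; 22.2%, against 23.2%). *PDGFRB* and *PDGFRA*, receptors for platelet-derived growth factor, rose by 1.33 ± 0.11 (adjusted p from edgeR = 7.19e-04) and 1.77 ± 0.36 (adjusted p from edgeR = 0.00767), the former to 16.7 CPM. Of the 4 tested epithelial, endothelial and blood markers, 0 passed by edgeR in either direction, with or without the block.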

How the data were processed

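RNA was measured in 8 libraries, 4 with serum and 4 serum-free. The authors deposited whole-number read counts per gene, not normalized. Per the labels, 100-base paired-end reads from ribosomal-RNA-depleted total RNA were processed with cutadapt, TopHat2 2.0.11 and HTSeq on GRCh38; the paper's methods name another read length, and hg19 for FPKM values that were not used here. The annotation release and strand setting are not given in the sources used here. Rows that name no gene were kept out of library sizes (ambiguous reads 8.23% to 11.5%). Depth was 29759279 reads on genes or more, and intervals cover the spread between lines.

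Of 58051 Ensembl identifiers, 55604 had a symbol. The 39 genes and the other lists were chosen with earlier results of these data known, and support nothing by themselves. The test was edgeR's quasi-likelihood F test (version 4.0.16, R 4.3.3, robust fit) after filterByExpr and TMM scaling, for serum-free over serum with no block term, with Benjamini-Hochberg adjustment over all genes tested and a threshold of 0.05. A second fit with line and medium tested the line terms. The scripts were checked on simulated data, where the fit with the line as a block recovered more changed genes than the fit without it, but with a share of false calls above the threshold; calls made only with the block are less certain for that reason. CPM used TMM-scaled library sizes. RPKM used merged exon lengths from GENCODE lifted to GRCh37; positions and promoter windows are from RefSeq GRCh38.p14.

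Values in every library are given for the 10 called genes with the largest absolute log2 fold change and for *SRF*, *MRTFA*, *MRTFB*, *ACTB*, *ACTG1*, *ACTA2* and *TAGLN*. From each other list the 2 called genes with the smallest p were named (the result of 1 list is not reported here); other names outside this rule (among them *EGR1*, *FOSB*, *IER3*, *JUNB*, *FOSL1*, *NR4A1*, *TPM1*, *FLNC*, *PDLIM7* and the low or undetected markers) were chosen after their values were seen. *LMOD1*, *MYH11* and *ACTG2* are in the smooth muscle list and among the SRF targets, and *MYOCD* is in the smooth muscle list and among the SRF cofactors, so they count in both.

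Libraries with the same line number come from the same clone. Their deviations from the medium's mean correlated at 0.403, 0.591, 0.456 and 0.604 in WT1 to WT4, and at -0.4 to 0.126 between different lines, so the numbers pair the libraries. Alternatives were the line as a replicate block, scaling by RLE or upper quartiles, other filters (none, or a minimum of 10 counts in each library), DESeq2 1.42.0, voom in limma 3.58.1, counts summed with named pseudogenes, the block with a GC correction (lowess, span 0.3), each library and each line left out, and, chosen after seeing the data, each line left out with the block.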

Additional observations from a re-analysis of the deposited data

Results flagged for a closer look

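In 4 of 74 groups of 4 libraries (37 genes, serum and serum-free), 1 line stood apart from the other 3 by Dixon's criterion; chance alone gives about 1 in 20, or 3.7. *TPM1* with serum was at 79.3 CPM in WT4 and at 198 to 235 CPM in the other lines. *CNN3* without serum was at 125 CPM in WT4 and at 256 to 272 CPM in the others. *PDLIM7* with serum was at 124 CPM in WT4 and at 67.1 to 73.8 CPM in the others. *FHL2* with serum was at 51.7 CPM in WT1 and at 43.5 to 44.3 CPM in the others. Of these, 3 concern WT4, the line whose name rests on the labels, though its serum and serum-free libraries correlated at 0.604. *TPM1*, *CNN3* and *PDLIM7* also differed between lines in the test over both media, and *FHL2* did not pass it (adjusted p from edgeR = 0.181).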

How the results depend on the processing

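Of the log2 fold changes of the 37 genes under 25 alternatives, 767 kept direction and side of the threshold, 49 passed newly, 36 no longer passed and 73 changed sign, all of the last in genes not called in the edgeR fit without a block. The replicate block gave 6 higher genes and changed no call other than the 7 named in the report. Leaving out libraries or lines, with or without the block, gave 1 to 7 higher genes and 5 to 16 lower genes, and 6 to 16 genes that differed between lines; over all genes the calls ran from 620 higher and 969 lower of 18104 (without WT1) to 4479 and 4459 of 17756 (without WT4, with the block), so the ranges do not concern the set alone. The block with GC correction gave 22 lower genes, a median of -0.2269 and signs opposite to the reported ones for *SRF* (-0.0094), *MRTFA* (-0.2288), *ACTN4* (-0.1478), *MYL6* (-0.0673), *FLNA* (-0.1477), *VASP* (-0.1857) and *CALD1* (0.0654). Signs also turned for *MRTFA* with RLE (-0.0102), no filter (-0.0044) and DESeq2 (-0.0186); for *MYL6* with the same (-0.0091, -0.0037 and -0.0176); for *VASP* with DESeq2 (-0.0012); for *MYL9* with upper-quartile scaling (0.0375) and voom (0.023); for *PDLIM7* with these (0.0469 and 0.0317) and the block (0.01); and with upper-quartile scaling for *TPM2* (0.0043), *CALD1* (0.0216) and *PFN1* (0.0303). With libraries or lines left out of the fit without a block, values that turned ran from -0.0659 to 0.0789 (*MRTFA*), -0.0105 to 0.104 (*MRTFB*), -0.0103 to 0.1069 (*ACTN4*), -0.1276 to 0.0383 (*MYL9*), -0.0649 to 0.0718 (*MYL6*), -0.0777 to 0.159 (*MYH10*), -0.1042 to 0.0293 (*TPM2*), -0.0666 to 0.2587 (*FHL1*), -0.0981 to 0.0132 (*CALD1*), -0.1279 to 0.2284 (*PDLIM7*), -0.0718 to 0.0374 (*PFN1*) and -0.0361 to 0.074 (*VASP*). With the block and 1 line left out, signs turned for *MRTFA* (-0.0108 and -0.014), *MYL9* (0.0307, 0.0134 and 0.0179), *MYL6* (-0.0561), *MYH10* (-0.0061 and -0.0026), *TPM2* (0.0068), *FHL1* (-0.0068), *PDLIM7* (0.0191 and 0.114), *PFN1* (0.0377) and *VASP* (-0.0355 and -0.0076). The causes were not tested. Upper-quartile scaling split the calls over all genes into 2508 higher and 1843 lower, against 1957 and 2477 with TMM. DESeq2 gave 4 higher and 12 lower genes of the set, and 2312 and 2939 of all 18333 it tested. With the longest transcript as length, 70 of 74 RPKM values moved by more than the SD between lines. Depth limits *ACTA2*, *TAGLN*, *CNN1* and *FLNC*.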
